A study of Sus scrofa with 9 samples.

Results

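Pig kidneys that were autotransplanted after 8 h of normothermic ex vivo perfusion (NEVKP, n = 3) were compared with autotransplants that were never stored (No Storage, n = 3). These 6 samples, of 9 in the series, were chosen by their treatment labels, and the comparison was described across 12355 genes, each carrying a single symbol in the array annotation. Where a gene had several probe sets, the one of highest mean over all 9 arrays stood for it. Every animal was a male Yorkshire pig of 30 kg, with 1 array per animal. In both groups the right kidney was exposed to 30 min of warm ischemia, taken out and flushed, the left kidney was removed at the transplant operation, and the biopsy was taken on post-operative day 3. No Storage kidneys were put back at once. NEVKP kidneys were perfused for 8 h before they were put back, so the groups differ both in perfusion and in time outside the body. A further 3 kidneys kept for 8 h in static cold storage (SCS) are given beside the comparison where they help to place a value. The biopsies are whole tissue, in which more cells of a type and more RNA per cell cannot be told apart.

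Normothermic perfusion keeps a donor organ near body temperature with an oxygenated perfusate, so that it remains metabolically active outside the body, whereas cold storage slows metabolism. Reperfusion of an ischemic kidney is known to injure the proximal tubule, whose cells depend on fatty acid oxidation, and to start an innate immune response. In that response, chemokines draw monocytes into the tissue, interferons induce antiviral and antigen presenting genes, and surviving tubule cells lose transporters while they repair. The comparison asks which of these programmes differ on day 3 between perfused and unstored kidneys.

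The deposited values were log2 intensities, and all differences below are NEVKP minus No Storage on that scale, so that 1 unit is a doubling. The arrays of both groups correlated with each other at 0.975 to 0.991 across probe sets, and their median log2 values lay between 5.71 and 5.79. The tissue carried defining kidney markers at high levels in each of the 6 arrays, such as LRP2, the endocytic receptor megalin, at 11.42 to 12.42 and UMOD, the thick limb protein uromodulin, at 11.64 to 12.96. Podocyte nephrin, NPHS1, was measured at 5.04 to 5.85. Each probe set was tested in limma with its own spread, drawn towards a value common to all probe sets. In this test 0 of 19124 probe sets (0.0%) passed a Benjamini-Hochberg adjusted p of 0.05. The adjusted p values began at 0.299, and before adjustment 1735 probe sets were under 0.05. Each gene below therefore missed the threshold in this comparison, and "higher" and "lower" describe measured values of these 6 animals. The median 95% confidence interval of a difference reached 0.36 to either side, and the number of arrays limits this precision.

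Of the 12355 genes, 5990 were higher and 6365 lower in NEVKP, with a median of -0.01. All 3 NEVKP arrays lay above all 3 No Storage arrays for 1080 genes, which is 8.74% of those measured, and below them for 1151, which is 9.32%. These shares are the background for the counts of gene lists below. With each array centred on its own median they were 695 above and 1738 below, so the balance of directions depends on the scaling. At an unadjusted p under 0.05 in limma there were 638 higher genes (5.16%) and 589 lower genes (4.77%). A difference of 1 or more was measured for 90 higher genes, 50 of them without overlap between the groups, and for 35 lower genes, 14 of them without overlap. The 52 lists held 1186 measured genes and were chosen with earlier results of these data known.

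**Figure D1:**
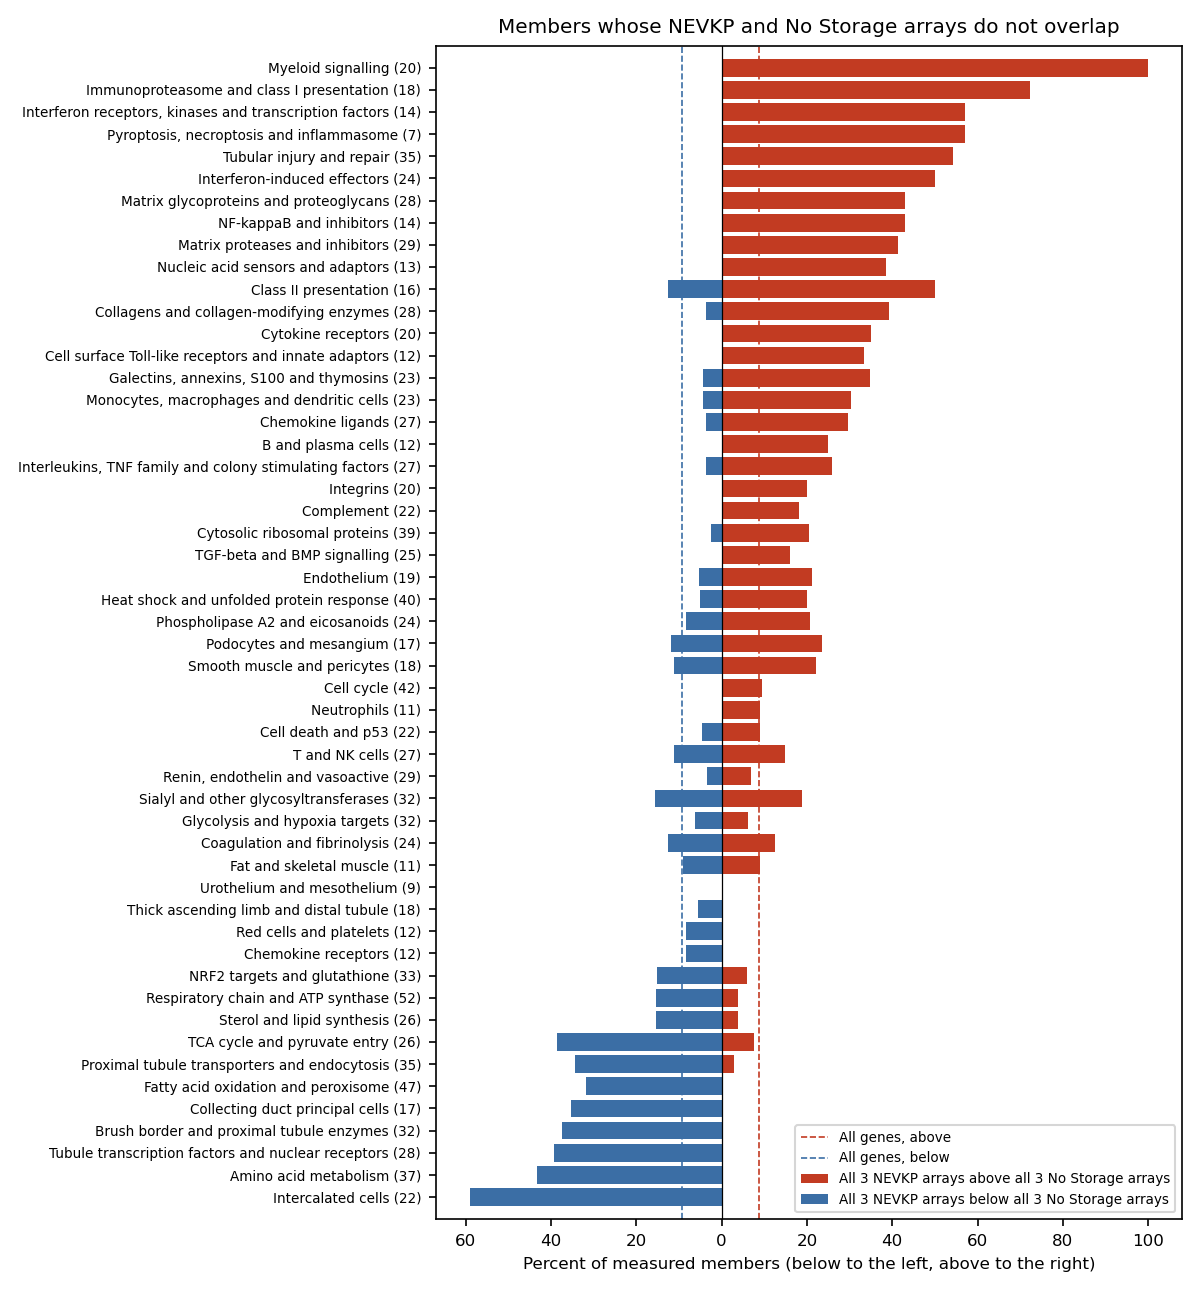
Percent of the measured members of each gene list (number in brackets) whose 3 NEVKP arrays all lay above (red, right) or all below (blue, left) the 3 No Storage arrays. Dashed lines mark the shares over all genes, 8.74% above and 9.32% below. Myeloid signalling (100%) and class I presentation (72.2%) stand at the top and intercalated cells (59.1% below) at the bottom. The myeloid list includes genes already seen to be high in these arrays, so its place is not independent evidence.

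UBD encodes a ubiquitin-like modifier that is induced by interferon and TNF (NCBI Gene ID 100294688). It was measured at 6.87, 6.92 and 6.75 in No Storage and at 8.48, 8.05 and 8.10 in NEVKP. All NEVKP arrays were high, and the spread within each group was small against the gap of 1.36 between the means (95% confidence interval 0.94 to 1.79, limma adjusted p = 0.299). The SCS arrays stood at 6.53, 7.14 and 6.49, near No Storage, and NEVKP exceeded SCS by 1.49 (limma adjusted p = 0.183). Array weights (1.66, limma adjusted p = 0.0453) or omission of SCS replicate 2 (1.70, limma adjusted p = 0.0389) brought UBD, and no other probe set, past the threshold in NEVKP against SCS.

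ITGB3, the beta3 subunit of the vitronectin receptor and of the platelet fibrinogen receptor (NCBI Gene ID 397063), was at 5.93, 5.87 and 5.59 in No Storage and at 6.89, 6.83 and 6.93 in NEVKP. The groups were again well apart, by 1.09 (SE 0.16). GPX8, a peroxidase of the endoplasmic reticulum, was higher by 0.99, from 5.53, 5.55 and 5.57 to 6.35, 6.98 and 6.31. Other non-overlapping genes of small p encode the actin-binding peptide TMSB10 (0.71), the lectin galectin-1 (LGALS1, 0.97), the chaperone FKBP7 (0.78), the kinase phosphatase DUSP5 (0.76), the zinc finger protein ZNF404 (0.74) and CMAH, which makes the sialic acid Neu5Gc (0.73). All of these had limma adjusted p between 0.299 and 0.331. In SCS, ITGB3 differed from the same No Storage arrays by 1.23, GPX8 by 1.06, LGALS1 by 1.45 and DUSP5 by 1.04. FKBP7 differed there by 0.75 and CMAH by 0.18. ITGB3, LGALS1 and DUSP5 passed the threshold in SCS against No Storage (limma adjusted p = 0.0402, 0.0402 and 0.0419). Higher values of ITGB3, GPX8, LGALS1, FKBP7 and DUSP5 were thus not particular to NEVKP.

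On the lower side, ST3GAL1, a sialyltransferase of O-linked glycans (NCBI Gene ID 445537), was at 8.77, 8.99 and 8.70 in No Storage and at 7.24, 7.59 and 7.45 in NEVKP. Its difference of -1.39 (95% confidence interval -1.92 to -0.87, limma adjusted p = 0.299) was the one of smallest p among lower genes. PLA2G12B, of the secreted phospholipase A2 family, was lower by 1.10 and NR1I3, the xenobiotic receptor CAR, by 0.90. The lower genes with the next smallest p values were CASQ2, a calcium store protein of muscle (-0.78), BCKDHB, of branched-chain amino acid breakdown (-0.68), TEN1, a telomere protein (-0.59), the nicotinic receptor subunit CHRNA3 (-0.97) and EVA1A (-0.65). The anion exchanger SLC26A6 (-0.97), the lysosomal protease CTSA (-0.66), the lysosomal channel MCOLN2 (-1.17) and KLF9, a transcription factor induced by glucocorticoids and thyroid hormone (-1.19), followed without overlap. Their limma adjusted p values ran from 0.299 to 0.376. In SCS, CASQ2 differed from No Storage by -1.66 and EVA1A by -1.11, both past the threshold (limma adjusted p = 0.0123 and 0.0402). BCKDHB (-0.60), CHRNA3 (-0.59), MCOLN2 (-0.91), CTSA (-0.45) and KLF9 (-0.71) were lower in SCS too.

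Among genes without overlap and with an unadjusted p under 0.05 in limma, the largest differences belonged to genes that varied more between animals. TAF7, a subunit of the general transcription factor TFIID, was higher by 1.84, but NEVKP replicate 3 at 7.75 lay only just above No Storage replicate 3 at 7.68. Among the 15 highest of these genes were the protease inhibitor SERPINB10 (1.51), the hyaluronan synthase SHAS2 (1.46), the gene of the microRNA precursor MIR21 (1.45) and the bicarbonate transporter SLC4A7 (1.43). The 15 lowest included PLET1 (-1.94), the drug-metabolising cytochromes CYP2C42 (-1.51) and CYP2C49 (-1.34), the D-aspartate oxidase gene DDO (-1.25), the scaffold protein HOMER2 (-1.05) and the pantetheinase VNN1. PLET1 stood at 8.31, 9.59 and 8.59 in No Storage and at 7.69, 5.46 and 7.51 in NEVKP, so replicate 2 carried much of its difference. In SCS the differences from No Storage were 1.45 for MIR21, -1.66 for DDO, -1.27 for CYP2C49, -0.87 for HOMER2 and -0.78 for CYP2C42.

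Interferon-related genes were higher in NEVKP as a group. Of 24 measured interferon-induced effectors, all 24 had a higher mean and 12 did not overlap, against 8.74% of all genes, with a median difference of 1.01 against -0.01 over all genes. For illustration, RSAD2, an antiviral radical SAM enzyme, was at 7.04, 5.87 and 7.28 in No Storage and at 7.85, 7.19 and 9.74 in NEVKP. IFIT3, a member of the IFIT family of RNA-binding antiviral proteins, was at 6.43, 5.92 and 6.83 against 7.53, 6.82 and 9.38. In both, NEVKP replicate 3 stood far above the other arrays and replicate 2 overlapped with No Storage.

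GBP1, a guanylate-binding GTPase of cell-autonomous defence, separated the groups completely: 6.79, 5.80 and 6.37 against 7.26, 7.54 and 8.26, a difference of 1.37 (SE 0.30, limma adjusted p = 0.342). IFIT2 (1.27), CMPK2 (1.27), MX2 (1.19), PARP14 (0.83), GBP2 (0.81), IFITM1 (0.66) and TRIM21 (0.63) also did not overlap. MX1 did overlap, at 8.83, 8.29 and 9.54 in No Storage and 9.05, 9.47 and 11.21 in NEVKP, a difference of 1.02. OAS1, a sensor of double-stranded RNA, differed by 0.47 with overlap, since NEVKP replicate 1 was at 3.53 and No Storage ran from 3.29 to 5.67. Averaged over the effectors and set against the mean of the No Storage arrays, the level was 0.48, 0.52 and 1.68 in the 3 NEVKP arrays and 0.01, -0.34 and 0.33 in No Storage. NEVKP replicate 3 was the highest NEVKP array for 22 of 24 effectors, and without it the list's median was 0.50 in place of 1.01. In SCS the median difference from the same No Storage arrays was 0.33.

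**Figure D2:**
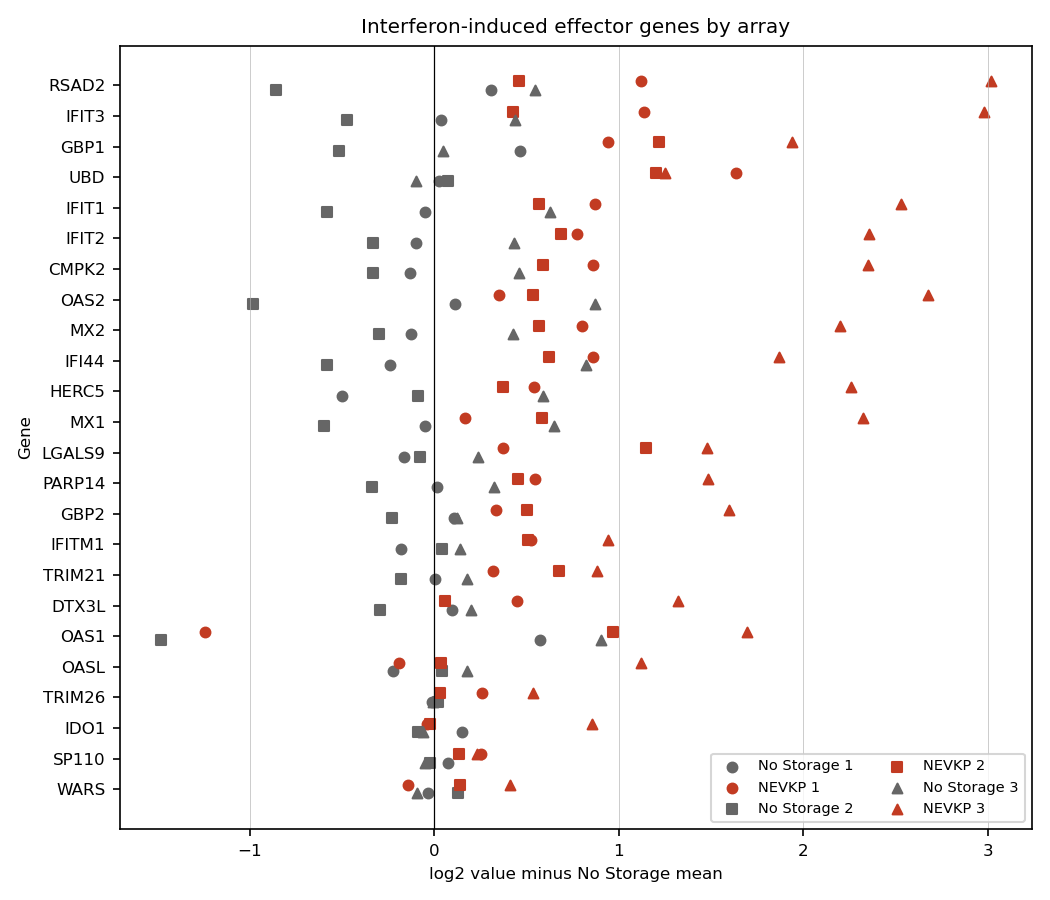
log2 value minus the No Storage mean for each interferon-induced effector, with No Storage arrays in grey and NEVKP arrays in red; symbols mark the replicate. NEVKP replicate 3 (triangles) is the highest NEVKP array for 22 of 24 genes, while UBD is at a similar height in all 3.

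Upstream of these effectors, 12 of 14 interferon receptor, kinase and transcription factor genes had a higher mean and 8 did not overlap, with a median of 0.28. IRF9, the DNA-binding partner of STAT2, was at 8.37, 7.82 and 8.55 in No Storage and 8.85, 9.09 and 9.42 in NEVKP. IRF1 was at 6.38, 6.24 and 6.49 against 6.67, 7.41 and 7.45. Both transcription factors were higher in every NEVKP array, by 0.87 and 0.81 (limma adjusted p = 0.373 and 0.395). USP18, a feedback inhibitor of interferon signalling, differed by 1.11, IRF5 by 0.47 and the interferon gamma receptor chain IFNGR1 by 0.38. IRF7 differed by 0.43 with overlap, since NEVKP replicate 2 was at 5.76 and No Storage reached 6.15. JAK1 (0.02) and JAK2 (-0.04) differed little. IFNG itself was dim, meaning among the lowest 25% of probe sets, and differed by 0.05 (95% confidence interval -0.36 to 0.47).

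Sensors of foreign nucleic acid had a higher mean for 12 of 13 genes, 5 without overlap, with a median of 0.52. TLR7, an endosomal receptor of single-stranded RNA, was at 7.08, 6.75 and 7.28 against 7.46, 8.18 and 7.98. EIF2AK2, the double-stranded RNA kinase PKR, differed by 0.81 and TLR8 by 0.52, both without overlap. The cytosolic helicases DHX58 (1.08) and IFIH1 (0.88) and the Z-nucleic acid sensor ZBP1 (0.93) overlapped, and the adaptor MAVS differed by -0.10.

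Antigen presentation genes were higher too. Of 18 genes of the immunoproteasome and the class I pathway, 17 had a higher mean and 13 did not overlap (72.2% against 8.74%), with a median of 0.42. TAP1, a chain of the transporter that carries peptides to class I molecules, was at 7.39, 6.96 and 7.51 in No Storage and 7.72, 8.16 and 9.02 in NEVKP. Its partner TAP2 was at 6.65, 6.03 and 6.29 against 6.95, 7.19 and 7.54, and the immunoproteasome subunit PSMB9 at 6.47, 5.88 and 6.29 against 6.68, 7.13 and 7.70. Each was higher in all 3 NEVKP arrays, with differences of 1.01, 0.90 and 0.96 (limma adjusted p = 0.395, 0.376 and 0.388). The peptide-editing chaperone TAPBP (0.55), the proteasome activator subunits PSME1 (0.42) and PSME2 (0.67), the trimming peptidase ERAP1 (0.41), the light chain B2M (0.36) and the class I genes SLA-3 (0.77), SLA-7 (0.73) and SLA-8 (0.54) did not overlap either. The class I genes are closely related in sequence, so signal may be shared among their probe sets. SLA-5 differed by -0.40 with overlap.

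Of 16 class II and costimulation genes, 13 had a higher mean, 8 lay above without overlap and 2 below, with a median of 0.52. CD86, a costimulatory ligand of antigen presenting cells (NCBI Gene ID 397441), was at 6.08, 5.53 and 5.88 in No Storage and 6.84, 7.12 and 6.83 in NEVKP. CTSS, the protease that trims the class II invariant chain, was at 8.83, 8.69 and 8.72 against 9.42, 9.50 and 9.49. These were tight and fully separate groups, with differences of 1.10 (95% confidence interval 0.63 to 1.56) and 0.73 (0.40 to 1.05). CD80 (0.91), the receptor CD40 (0.72), the peptide exchange factors SLA-DMA (0.64) and SLA-DMB (0.64) and the class II chain SLA-DRA (0.64) did not overlap either. SLA-DOB, a modulator of that exchange, was lower by 0.73 and the protease LGMN by 0.29, both without overlap.

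Among 27 measured chemokine ligands, 21 had a higher mean, 8 lay above without overlap (29.6%) and 1 below, with a median of 0.51. CXCL10, an interferon-induced ligand of CXCR3, a chemokine receptor of T cells, was at 7.27, 6.22 and 7.11 in No Storage and 7.86, 8.24 and 9.99 in NEVKP. CCL2, which draws monocytes, was at 7.99, 8.18 and 7.72 against 8.82, 10.45 and 9.28. Both were higher in every NEVKP array, but the highest array was replicate 3 for CXCL10 and replicate 2 for CCL2. Their differences were 1.83 (SE 0.47, limma adjusted p = 0.395) and 1.55 (SE 0.35, limma adjusted p = 0.342). In SCS, CXCL10 differed from No Storage by 0.25 and CCL2 by 1.59. CCL8 (1.56), the neutrophil attractant CXCL8 (1.40), CCL4 (0.69), CCL5 (0.51), CXCL16 (0.41) and XCL1 (0.32) completed the non-overlapping ligands. CXCL11 was at 7.06, 5.36 and 9.55 in NEVKP and reached 6.36 in No Storage, so its groups overlapped. Of 12 chemokine receptors 0 lay above and 1 below, CXCR3, which differed by -0.20. The receptors' median was 0.01, with a range of -0.06 to 0.13 over the settings tried.

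Of 27 cytokine genes, 6 of them dim, 14 had a higher mean, 7 without overlap, and the median was 0.05. That median ran from -0.002 with arrays centred to 0.40 without the dimmest 25% of probe sets. IL6 was at 4.54, 4.98 and 5.06 against 5.15, 6.58 and 6.91 in NEVKP, and TNF at 4.88, 5.21 and 4.86 against 5.56, 6.36 and 5.60. Both inflammatory cytokines were higher in each NEVKP array, by 1.35 and 0.86. In SCS, IL6 differed from No Storage by 1.515. IL1A (1.04), the B cell survival factor TNFSF13B (0.96), the macrophage growth factor CSF1 (0.74), IL18 (0.69) and the anti-inflammatory IL10 (0.62) were the others above, and lymphotoxin LTA (-0.28) lay below. The T cell cytokine IL4 was dim and differed by -0.03.

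NF-kappaB members and inhibitors had a higher mean for 12 of 14 genes, 6 without overlap, with a median of 0.27. TNFAIP3, the deubiquitinase A20 that limits NF-kappaB, was at 6.23, 6.29 and 6.23 against 6.81, 8.02 and 6.64, and the inhibitor NFKBIA at 8.42, 8.22 and 8.37 against 8.82, 9.88 and 8.74. NEVKP replicate 2 was the high array in both. The differences were 0.91 and 0.81, and the subunits NFKB1 and NFKB2 differed by 0.31 and 0.35. Of 12 genes of cell surface Toll-like receptors and other innate receptors and adaptors 4 lay above, TLR4 (0.71), TLR2 (0.51), NOD1 (0.33) and the dim TLR6 (0.32), whereas CD14 differed by -0.02. Of 7 genes of pyroptosis and necroptosis, CASP1 (1.06), NLRP3 (0.57), the pore protein gene GSDMD (0.44) and RIPK1 (0.28) lay above, and RIPK3 differed by -0.04. CASP1 stood at 8.03, 7.33 and 7.87 in No Storage and 8.64, 8.65 and 9.10 in NEVKP. Cytokine receptors had a higher mean for 18 of 20 genes, with 7 above, among them CSF2RB (0.62), IL2RG (0.57) and the macrophage growth factor receptor CSF1R (0.43).

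**Figure D3:**
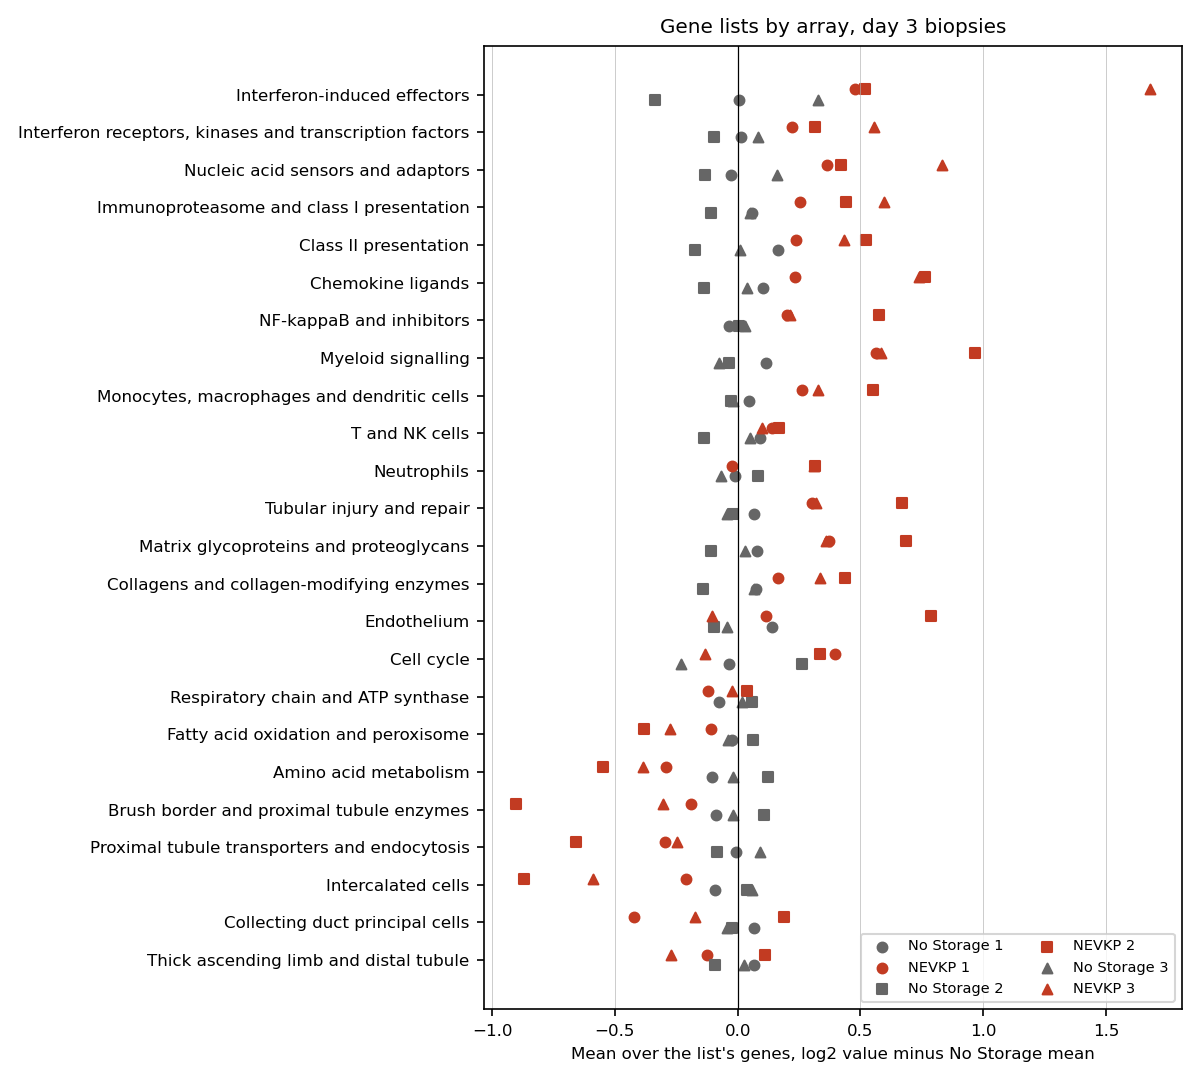
Mean over the measured genes of 24 lists in each No Storage array (grey) and each NEVKP array (red), as log2 value minus the No Storage mean of each gene. Interferon effectors reach 1.68 in NEVKP replicate 3, and proximal tubule enzymes reach -0.90 in NEVKP replicate 2; all 3 NEVKP points lie right of No Storage for myeloid signalling.

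The list named myeloid signalling had the largest share of separate genes. Some of its members, such as PTPRC and EVI2B, are leukocyte genes not particular to myeloid cells. All 20 measured members lay above without overlap (100% against 8.74%), with a median of 0.77, and the list means were 0.56, 0.97 and 0.58 in NEVKP against 0.12, -0.04 and -0.08 in No Storage. The list includes genes already seen to be high in these arrays, so the count is not independent evidence. SPI1, the transcription factor PU.1 of myeloid and B cells (NCBI Gene ID 414912), was at 6.39, 6.01 and 5.96 against 6.88, 7.18 and 7.11. FCER1G, the signalling chain of Fc receptors, was at 7.03, 6.61 and 6.31 against 7.31, 8.13 and 7.48. Both genes were clear of No Storage in each array, by 0.93 and 0.99 (limma adjusted p = 0.299 and 0.358).

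The other members of the list include the adaptors PIK3AP1 (0.92), LCP2 (0.78) and TYROBP (0.76), the kinases SYK (0.86), BTK (0.79) and FGR (0.59), the exchange factor VAV1 (0.66), the leukocyte phosphatase PTPRC (0.66), known as CD45, the lipid phosphatase INPP5D (0.50), and the oxidase subunits NCF4 (0.43) and NCF1 (0.21). EVI2B, a leukocyte membrane protein, was at 7.64, 7.63 and 7.61 in No Storage and 8.47, 8.81 and 8.25 in NEVKP. The No Storage arrays agreed within 0.03 on this gene, and NEVKP exceeded them by 0.88. NEVKP replicate 2 was the highest NEVKP array for 19 of 20 members, and without it the median was 0.62 with all 20 still above (12.5% of all genes then lay above). That count is not independent evidence either, since the list includes genes already seen to be high. In SCS the median difference from No Storage was 0.51.

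**Figure D4:**
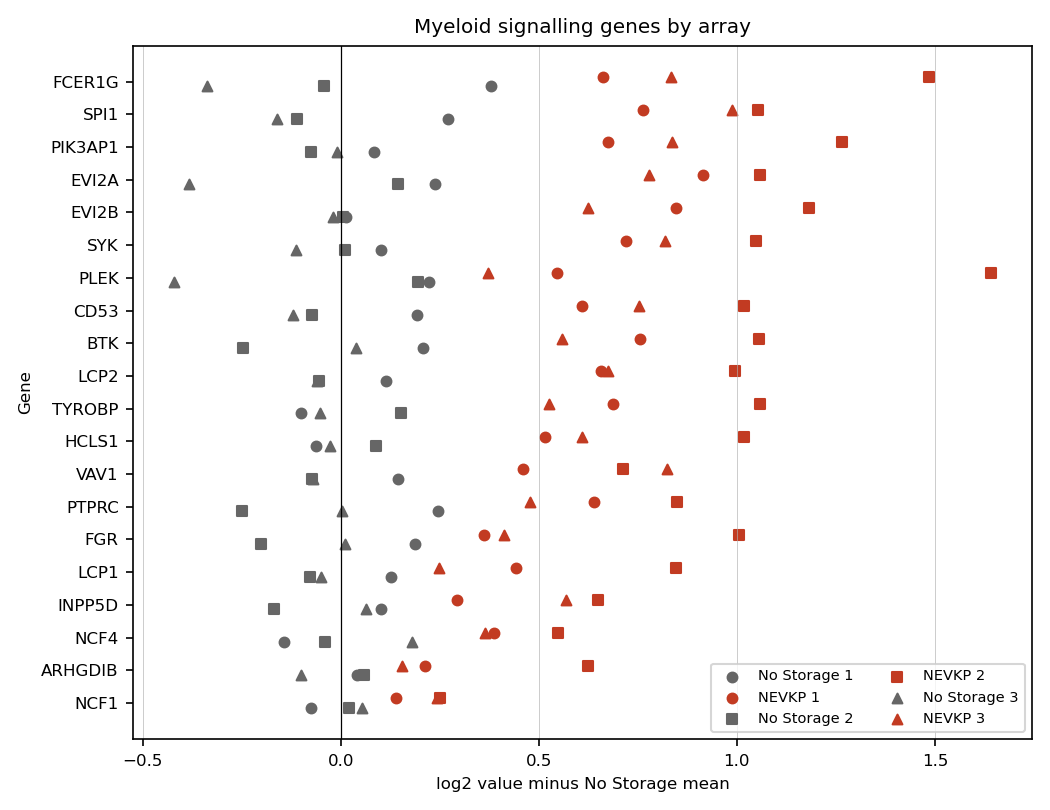
log2 value minus the No Storage mean for the 20 myeloid signalling genes, No Storage arrays in grey and NEVKP arrays in red, with symbols for the replicate. Every red point lies to the right of the grey points of its gene, and NEVKP replicate 2 (squares) is the highest for 19 of 20.

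Markers of monocytes, macrophages and dendritic cells had a higher mean for 21 of 23 genes, with 7 above and 1 below without overlap and a median of 0.36, or 0.23 without NEVKP replicate 2. Apart from CD86, the genes above were lysozyme LYZ (1.19), MS4A7 (0.86), CD83 of maturing dendritic cells (0.80), AIF1 (0.46), CSF1R (0.43) and ADGRE1 (0.23). LST1 was lower, at 5.33, 4.98 and 5.25 in NEVKP against 5.92, 5.53 and 5.88. MPEG1, a pore-forming protein of macrophages (NCBI Gene ID 100516953), was at 8.93, 8.69 and 9.21 in No Storage, 10.12, 10.15 and 9.59 in NEVKP and 9.22, 8.82 and 9.27 in SCS. It was thus high in all NEVKP kidneys and close to No Storage in SCS, with a difference of 0.85 between NEVKP and SCS (limma adjusted p = 0.52). C1QA, C1QB and C1QC, the macrophage-made chains of complement C1q, differed by 0.43, 0.36 and 0.43 in NEVKP and by -0.60, -0.63 and -0.65 in SCS. The NEVKP arrays overlapped with No Storage for all 3 chains, since replicate 1 was the lowest.

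The other leukocyte lists were mixed. Neutrophil genes had 1 of 11 above (9.09%, near the 8.74% of all genes), the scavenger receptor OLR1 (0.80). The granule proteins S100A8 (-0.09), S100A9 (-0.07) and MPO (0.04) were dim. T and NK cell genes had 4 of 27 above and 3 below with a median of 0.05. Their shares were 14.8% and 11.1%, against 8.74% and 9.32% of all genes. CD2, an adhesion molecule of T and NK cells, differed by 0.85, NKG7 of cytotoxic granules by 0.52 and the transcription factor TBX21 by 0.47. The genes below were the granzymes GZMK (-0.67, dim) and GZMH (-0.26) and the transcription factor GATA3 (-0.32), which kidney cells also express. The list's median was 0.001 without No Storage replicate 2 and 0.12 without NEVKP replicate 2. The T cell receptor chains CD3E (0.30) and CD3D (0.28) overlapped, and CD4 and CD8A both differed by -0.01. JCHAIN, which links immunoglobulin chains in plasma cells, was at 9.37, 8.40 and 9.24 against 9.77, 10.62 and 10.75 in NEVKP, a difference of 1.37. BANK1 (0.63) and PRDM1 (0.37) were the other B lineage genes above, 3 of 12 in all. Complement genes lay above for 4 of 22, namely properdin CFP (0.72), the proteases C1S (0.64) and C1R (0.53) and clusterin CLU (0.40), with a median of 0.15, or 0.31 without NEVKP replicate 1.

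Genes known to be induced in injured and repairing tubules had a higher mean for 30 of 35 members, 19 of them without overlap (54.3% against 8.74%), with a median of 0.42. ITGB6, which activates TGF-beta on epithelia, was at 8.47, 7.47 and 7.78 in No Storage and 8.58, 9.78 and 9.06 in NEVKP. VCAM1, an adhesion molecule of endothelium and of failed-repair tubules, was at 8.81, 8.14 and 8.44 against 9.15, 10.43 and 9.35, and ANXA1 at 8.95, 8.77 and 8.47 against 9.58, 9.48 and 9.58. All NEVKP arrays were higher, most uniformly for ANXA1, and the differences were 1.23, 1.18 and 0.81. The keratins KRT8 (0.49), KRT18 (0.20) and KRT19 (0.50), the transcription factors MYC (0.76), JUN (0.54), ATF3 (0.59), SOX4 (0.44) and KLF5 (0.28) and osteopontin SPP1 (0.42) also lay above. Widely used markers of kidney injury overlapped: LCN2 differed by 0.24 (95% confidence interval -0.57 to 1.05) and the dim HAVCR1 by -0.05 (-0.32 to 0.22). In SCS the list's median difference from No Storage was 0.72.

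Matrix genes were higher in 3 lists. Of 28 matrix glycoproteins and proteoglycans 26 had a higher mean and 12 did not overlap (median 0.45). Of 28 collagens and their modifying enzymes 26 had a higher mean, 11 lay above and 1 below (median 0.30). Of 29 proteases and inhibitors 26 had a higher mean and 12 lay above (median 0.30, or 0.17 without NEVKP replicate 2). In SCS the medians of these 3 lists were 0.52, 0.49 and 0.25. COL1A1, the main chain of type I collagen, was at 10.60, 10.58 and 10.86 against 11.39, 11.58 and 11.71, a difference of 0.88 (SE 0.20, limma adjusted p = 0.343). TIMP1, an inhibitor of metalloproteinases, was at 8.95, 8.74 and 8.59 against 9.42, 10.38 and 10.02, a difference of 1.18 (SE 0.24, limma adjusted p = 0.331). Both were separate in every array. Tenascin TNC (1.61), versican VCAN (1.24), periostin POSTN (1.07), TGFBI (0.98), CTHRC1 (1.36), COL1A2 (0.62), COL3A1 (0.60) and fibronectin FN1 (0.47) did not overlap either, while the basement membrane chain COL4A3 was lower by 0.45 with overlap. TGF-beta and BMP signalling genes had 4 of 25 above with a median of 0.11, or 0.05 without NEVKP replicate 2, and TGFB1 differed by 0.61 with overlap.

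Endothelial and podocyte genes did not differ in a single direction, whereas most smooth muscle genes had a higher mean. Of 19 endothelial genes 4 lay above and 1 below, and the list means of the NEVKP arrays were 0.12, 0.79 and -0.10. SELE, the inducible adhesion molecule E-selectin, was at 4.63, 9.18 and 4.48 in NEVKP and at 4.25 or lower in No Storage. That is a difference of 1.97 made almost wholly by NEVKP replicate 2, and without it the difference was 0.43. ICAM1 (0.93) and ENG (0.53) lay above, FLT1, a VEGF receptor, lay below at 7.32, 7.05 and 6.66 against 7.88, 7.63 and 7.67, and the pan-endothelial PECAM1 differed by -0.02. Without NEVKP replicate 2 the endothelial median turned from 0.17 to -0.01. Smooth muscle genes had a higher mean for 15 of 18, with a median of 0.24 that ran from 0.13 to 0.34 over the settings tried. The SCS median was 0.32. Of these 18, 4 lay above (22.2% against 8.74%), including calponin CNN1 (0.88) and transgelin TAGLN (0.75). A further 2 lay below (11.1% against 9.32%), CASQ2 and the calcium release channel RYR2 (-0.40). ACTA2 was higher by 0.66 with overlap. Podocyte and mesangial genes had a median of -0.05, which turned to 0.04 without NEVKP replicate 2, with SULF1 higher by 0.78 and NPHS1 lower by 0.36.

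Genes of the proximal tubule were lower in NEVKP. Of 35 transporter and endocytosis genes, 32 had a lower mean and 12 lay below without overlap (34.3% against 9.32%), with a median of -0.45. The SCS median against the same No Storage arrays was -0.71, so lower values were not particular to NEVKP. CUBN, the receptor cubilin, was at 11.81, 11.89 and 11.93 in No Storage and 11.59, 10.44 and 11.57 in NEVKP. SLC37A4, the glucose 6-phosphate transporter, was at 9.99, 10.40 and 10.22 against 9.60, 9.01 and 9.60. NEVKP replicate 2 was lowest for both, and the other NEVKP arrays were still below No Storage. The differences were -0.68 and -0.80. The dicarboxylate transporter SLC13A3 (-0.73), the urate transporter SLC22A12 (-0.63), the potassium channel KCNJ15 (-0.63) and SLC38A11 (-0.64) also lay below, whereas SLC5A1, a glucose cotransporter, differed by 0.90 with overlap. LRP2 lay below by 0.385. The difference of SLC34A1 ran from -0.09 to 0.525 over the settings tried, so it was not lower like most of the list.

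Of 32 brush border and proximal tubule enzymes, 29 had a lower mean and 12 lay below without overlap (37.5%), with a median of -0.53. The SCS median was -0.64. SIAE, an esterase of sialic acids, was at 8.88, 8.59 and 8.90 against 7.90, 7.77 and 7.60, a difference of -1.03 that was alike in all 3 arrays. HAO2 (-0.95), of peroxisomal hydroxy acid oxidation, neprilysin MME (-0.69), villin VIL1 (-0.65), MEP1B (-0.73) and CYP2D25 (-0.61) lay below, and the detoxifying enzyme GSTA1 varied between 5.48 and 9.52 in No Storage alone. The list means were -0.19, -0.90 and -0.30 in the NEVKP arrays. Without NEVKP replicate 2, the lowest array for 24 of 32 enzymes and 23 of 35 transporters, the medians were -0.22 and -0.30, with 12 and 13 members below (14.6% of all genes then lay below).

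Transcription factors of the tubule showed the same direction, with 22 of 28 lower in the mean, 11 below without overlap and 0 above, and a median of -0.22. That median was -0.16 in SCS. HNF4A, which drives proximal tubule differentiation, was at 9.48, 9.76 and 9.57 against 9.15, 8.38 and 9.09. PPARA, which drives fatty acid oxidation, was at 9.77, 9.23 and 9.78 against 8.85, 8.53 and 9.20. Both were lower in every NEVKP array, by 0.73 each (limma adjusted p = 0.395 and 0.439). The xenobiotic receptors NR1I2 (-0.86) and NR1I3 (-0.90), the thyroid receptor THRB (-0.51), LHX1 (-0.64) and ESRRA (-0.24) lay below as well.

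Acid-secreting intercalated cells of the collecting duct had the largest share of lower genes. Of 22 measured genes, 21 had a lower mean and 13 lay below without overlap (59.1% against 9.32%), with a median of -0.51. RHCG, an ammonia channel (NCBI Gene ID 733644), was at 8.37, 8.45 and 8.73 in No Storage and 8.06, 6.58 and 7.43 in NEVKP. ATP6V0A4, the kidney subunit of the proton pump, was at 9.17, 9.45 and 9.18 against 8.88, 8.23 and 8.17, and FOXI1, the transcription factor that specifies these cells, at 6.71, 6.82 and 6.64 against 6.47, 5.80 and 6.28. The groups did not overlap, NEVKP replicate 1 being the array nearest to No Storage each time. Differences were -1.16, -0.84 and -0.54. The pump subunits ATP6V1C2 (-0.91), ATP6V0A1 (-0.59) and ATP6V1A (-0.35), the anion exchanger SLC26A7 (-0.79) and carbonic anhydrase CA4 (-0.62) lay below, and RHBG (-1.39) and SLC4A1 (-0.75) were lower with overlap. NEVKP replicate 1 was the highest NEVKP array for 18 of 22 genes, and in SCS the median difference was -0.69. Without NEVKP replicate 2, the lowest NEVKP array for 14 of the 22, the median was -0.38 and 13 genes still lay below, against 14.6% of all genes.

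**Figure D5:**
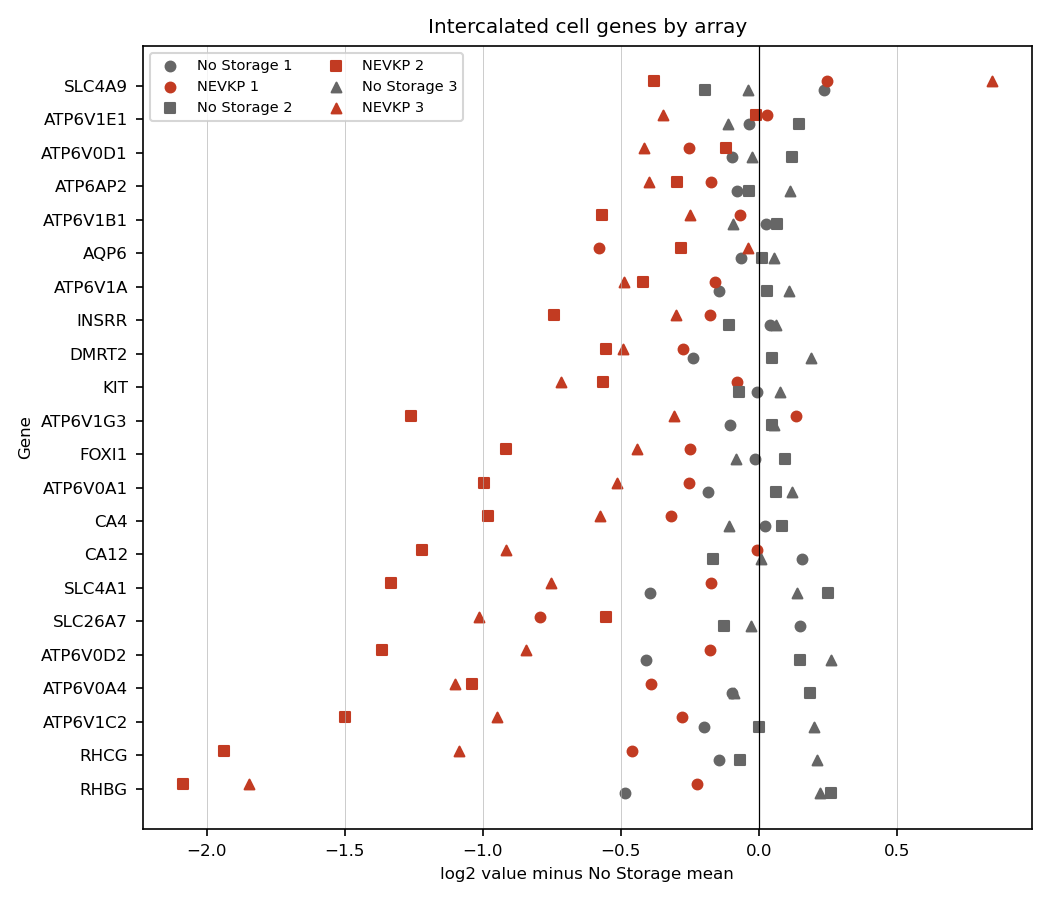
log2 value minus the No Storage mean for the 22 intercalated cell genes, No Storage arrays in grey and NEVKP arrays in red, with symbols for the replicate. Red points lie left of grey for 13 of 22 genes; NEVKP replicate 1 (circles) is the nearest to No Storage for 18.

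Principal cells, which reabsorb sodium and water, had 6 of 17 genes below (35.3% against 9.32%) and 0 above, with a median of -0.14. The SCS median was -0.26. In NEVKP the median was -0.08 without replicate 1 and -0.25 without replicate 2, when 9 genes lay below (14.6% of all genes then lay below). SCNN1A, the alpha subunit of the epithelial sodium channel, was at 8.05, 8.06 and 7.93 against 7.44, 7.42 and 7.53, and SCNN1G, its gamma subunit, at 9.04, 8.77 and 8.77 against 8.17, 7.67 and 7.78. The 2 channel subunits were lower in each array, by 0.55 and 0.98. HSD11B2, which protects the mineralocorticoid receptor from cortisol, was lower by 0.55, whereas the water channel AQP2 overlapped at 6.23 to 7.74 against 6.91 to 7.46. The thick ascending limb and distal tubule had 1 of 18 genes below and a median of -0.06, which was 0.01 without NEVKP replicate 3 and -0.14 without replicate 2. UMOD differed by 0.19 and the cotransporter SLC12A1 by 0.32 with overlap. In SCS UMOD differed by -2.21 from No Storage, and NEVKP exceeded SCS by 2.40 (limma adjusted p = 0.439). The distal calcium channel TRPV5 was lower by 1.54, at 6.68, 4.99 and 5.07 against 6.49, 7.76 and 7.10, with replicate 1 in the range of No Storage.

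Genes of fatty acid, amino acid and TCA cycle metabolism were mostly lower in NEVKP. Of 47 genes of fatty acid oxidation and the peroxisome, 39 had a lower mean and 15 lay below without overlap (31.9%), with a median of -0.29. The SCS median for this list was -0.47. The short-chain dehydrogenase ACADS was at 9.27, 9.50 and 9.37 against 9.00, 8.63 and 8.78, and catalase CAT at 12.49, 12.58 and 12.56 against 12.37, 11.94 and 12.01. Both were lower in each array, by 0.58 and 0.44, and so were the fatty acid importer SLC27A2 (-0.93), ECHS1 (-0.65), ACAA2 (-0.51) and ETFDH (-0.50). CPT1A, the gate of mitochondrial fatty acid import, differed by -0.33 with overlap. Amino acid metabolism had 34 of 37 genes lower in the mean, 16 below and 0 above (43.2% below), with a median of -0.45. Its SCS median was -0.49. PHGDH, the entry enzyme of serine synthesis, was at 9.01, 9.34 and 8.94 against 8.17, 8.36 and 8.44. PCCA (-0.63) and PCCB (-0.57) of propionate use, ASL (-0.72) and ASS1 (-0.55) of arginine synthesis and CTH (-0.78) of cysteine synthesis also lay below.

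PC, pyruvate carboxylase, which feeds the TCA cycle and gluconeogenesis (NCBI Gene ID 397630), was at 9.66, 9.99 and 9.75 in No Storage and 9.14, 8.22 and 9.06 in NEVKP, a difference of -0.99 (limma adjusted p = 0.342). It was among 10 of 26 TCA cycle genes that lay below (38.5%), with a median of -0.16, or -0.10 without NEVKP replicate 3, and ME3, a malic enzyme, was higher by 0.52. The TCA cycle median in SCS was -0.24. The respiratory chain differed less, with 8 of 52 genes below, 2 above and a median of -0.02 that ran from -0.08 to 0.01 over the settings tried. The complex I genes NDUFB5 (-0.45) and NDUFV1 (-0.41) lay below, and the ATP synthase gene ATP5B differed by 0.01. Glycolysis and hypoxia targets had a higher mean for 22 of 32 genes, with a median of 0.09 (0.03 without NEVKP replicate 2). Of these 32, 2 lay above, LDHA (0.48) and HIF1A (0.37), and 2 below, EGLN3 (-0.54) and PGK1 (-0.19), with VEGFA at -0.05. Each share was 6.25%, under that of all genes. Sterol and lipid synthesis genes had 4 of 26 below (15.4% against 9.32%), including the lipid droplet protein PLIN4. A single gene lay above (3.85% against 8.74%), the desaturase FADS2 (0.92).

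Stress and growth lists had small median differences, with larger ones in single genes. NRF2 targets had 26 of 33 lower in the mean, but 5 below (15.2% against 9.32%) and 2 above (6.06% against 8.74%) without overlap. GPX8 (0.99) was among those above. NQO1, a reductase of quinones, was at 7.43, 10.18 and 8.73 in No Storage and 9.11, 6.68 and 7.21 in NEVKP, a spread between animals larger than the difference of -1.11 (95% confidence interval -2.76 to 0.53). Heat shock and unfolded protein genes had 8 of 40 above, such as MANF (0.32), and 2 below, BAG3 (-0.45) and HSPB8 (-0.57). The chaperone HSPA5 differed by 0.21 with overlap. Cell cycle genes had a higher mean for 38 of 42, but 4 without overlap (9.52%), and the list means were 0.40, 0.34 and -0.14 in NEVKP. Their median was 0.19, 0.36 without NEVKP replicate 3 and 0.06 without No Storage replicate 3, and 0.61 in SCS. Cell death genes had 2 of 22 above, PMAIP1 (0.51) and the dim BCL2A1 (0.35), a share of 9.09% near the 8.74% of all genes. Ribosomal protein genes had 35 of 39 higher in the mean, 8 above (20.5% against 8.74%) and 1 below (2.56% against 9.32%), RPL27A (-0.32). Their median of 0.12 became 0.07 with arrays centred on their medians and 0.05 without NEVKP replicate 3, the highest NEVKP array for 28 of the 39.

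Further families were mixed. Sialyl- and other glycosyltransferases had 6 of 32 above and 5 below, so that ST3GAL1 (-1.39) and the sialidase NEU1 (-0.57) stood beside B4GALT5 (0.53) and ST3GAL4 (0.32). Of 24 phospholipase A2 and eicosanoid genes 5 lay above, led by ALOX5AP, which hands arachidonic acid to 5-lipoxygenase (8.05, 7.57 and 7.12 against 8.43, 8.95 and 8.52), and 2 below. PTGS2, the inducible cyclooxygenase, was at 5.18, 7.53 and 5.79 in NEVKP against 4.76 to 5.28, so replicate 1 overlapped. Of 24 coagulation genes 3 lay above and 3 below, 12.5% each, not far from the 8.74% and 9.32% of all genes. Those above were the urokinase receptor PLAUR (1.01), PLAT (0.63) and PLAU (0.52). Those below were F9 (-0.80), antithrombin SERPINC1 (-0.56) and F8 (-0.45). Of 29 vasoactive genes endothelin EDN1 (0.86) and ADRA1B (0.39) lay above and ECE1 (-0.16) below. These shares, 6.9% and 3.45%, were under those of all genes. Integrins had 4 of 20 above, ITGA4 (0.82) of leukocytes and ITGA11 (0.27) among them. Galectins, annexins, S100 proteins and thymosins had 8 of 23 above and 1 below. Blood, fat, muscle and urothelium lists had 1 or fewer of their 9 to 12 members apart in each direction, and 6 of 12 red cell and platelet genes were dim.

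NEVKP arrays differed from each other more than No Storage arrays did, with a median SD within the group of 0.18 against 0.14. The SCS arrays varied to a similar degree, with a median SD of 0.19. NEVKP replicate 2 exceeded both other NEVKP arrays by more than 1 for 143 genes, against 52 for replicate 1 and 37 for replicate 3, and 12 to 27 for the No Storage arrays. SLC14A1, a urea transporter of the descending vasa recta, was at 8.46 in replicate 2 and at 3.46 to 4.03 in the other 5 arrays. NDNF (9.33), the potassium channel partner KCNIP1 (7.89), MOXD1 (8.56), the dendritic lectin CD209 (7.15) and SSTR2 (6.36) were also high there, with the log2 level in replicate 2 in brackets, and TMEM52B was low at 7.70 against 10.14 to 11.09. FXYD4, a sodium pump regulator of the collecting duct, was at 6.56, 10.31 and 9.16, thus low in replicate 1 and high in replicate 2.

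In the same replicate 2 the thick limb and distal list was highest among NEVKP arrays for 11 of 18 genes and the principal cell list for 10 of 17, with list means of 0.11 and 0.19, while the proximal lists were lowest. The part of this segment balance in the lower proximal and intercalated values was not tested, and the medians without the array are given beside those lists. NEVKP replicate 3 was highest for the helicase DDX60, at 8.91 against 6.08 and 6.03. With its own log2 level in brackets, NEVKP replicate 1 was highest for ESM1, an endothelial proteoglycan (9.28), GSTA1 (10.75) and the dim PRG4 (5.46), and lowest for CCL19 (6.46), SLC5A8 (5.08), UNC93A (4.79), UBAP1 (6.32), AADAT (8.77) and ANKRD1 (4.99). ANKRD1, a stretch- and injury-induced nuclear protein, had the difference of 2.13, with replicates 2 and 3 at 7.48 and 7.15 above No Storage at 3.94 to 5.18.

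Beside SCS, measured against the same No Storage arrays, the differences of several lists were of unlike size. The median was 1.01 in NEVKP (0.50 without replicate 3) and 0.33 in SCS for interferon effectors, 0.51 and 0.15 for chemokine ligands and 0.52 and 0.16 for class II genes. It was 0.42 and 0.72 for tubular injury, 0.19 and 0.61 for the cell cycle and -0.06 and -0.48 for the thick ascending limb. Some immune lists were closer, with 0.28 in NEVKP and 0.27 in SCS for interferon receptors, kinases and transcription factors. The medians were 0.52 and 0.41 for nucleic acid sensors, 0.42 and 0.31 for class I genes and 0.27 and 0.35 for NF-kappaB genes. In limma 0 of 19124 probe sets (0.0%) passed for NEVKP against SCS, where adjusted p values began at 0.183 and 1434 were under 0.05 before adjustment, so these differences between storage modes did not pass for single genes.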

How the data were processed

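Total RNA of 9 kidney biopsies, 1 per animal, was hybridised to Affymetrix arrays, per the labels' protocols. The deposited values are log2 intensities made by RMA, per the submitters' processing notes, where limma 3.34.14 is listed too. Not given in the sources used here are the type of array and any filter. Of 19124 probe sets, 13680 were annotated and 13323 had 1 symbol, 357 several; 7 were left out, and the other 13316 gave 12355 genes. A model of all 9 arrays was made in R 4.3.3 using limma 3.58.1, with group as the only term and Benjamini-Hochberg adjustment over all probe sets, and the script was tested on simulated data. The comparisons, gene lists and members were chosen with earlier results of these data known.

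Genes were named by rule: non-overlapping genes of smallest p (20 in each direction) or, among those with an unadjusted p under 0.05, largest difference (15 in each direction), up to 6 members of each list by p, and a fixed set. Many further members of the lists are given beside them, among them RSAD2, IFIT3, the C1q chains, the myeloid signalling genes, the keratins and the genes that overlapped; these were chosen after their values were seen. Some genes of the fixed set, such as ISG15, IL1B, CD68, CD163 and MKI67, were not analysed here. Genes that stood apart in 1 array were listed by the gap to the other arrays. No batch is named in the labels. Promoter motifs were not run, and no sequence is printed. The p values measure the spread between animals.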

Additional observations from a re-analysis of the deposited data

Results flagged for a closer look

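ADRA1B, an alpha-1 adrenergic receptor, and HSPB8, a small heat shock protein, were picked out because every NEVKP array lay on one side of No Storage and every SCS array on the other. ADRA1B was at 6.22, 6.29 and 6.10 in NEVKP, 5.84, 5.76 and 5.83 in No Storage and 5.25, 5.36 and 5.58 in SCS, and NEVKP exceeded SCS by 0.807 (limma adjusted p = 0.243). HSPB8 was at 5.25, 4.99 and 4.99 in NEVKP, 5.46, 5.90 and 5.59 in No Storage and 6.54, 5.93 and 5.98 in SCS, a difference of -1.074 between NEVKP and SCS (limma adjusted p = 0.314). Neither passed the threshold. No formal outlier test was applied to groups of 3 arrays.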

How the results depend on the processing

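NEVKP against No Storage gave 0 probe sets past the threshold in limma under all 17 settings run, including array weights, centring, a trended prior, the dim filter and each array left out; the smallest adjusted p ran from 0.0724 to 0.721 and the count under 0.05 before adjustment from 1183 to 2154. For NEVKP against SCS the count was 1 with array weights and 0 to 1 with 1 array left out. Centring arrays on their medians gave 695 genes above and 1738 below. Leaving out 1 array gave 1542 to 1896 above and 1675 to 1974 below, as fewer arrays have to be apart. The replicate numbers did not pair the animals: same-numbered No Storage and NEVKP arrays correlated at -0.139, -0.0762 and 0.00141 in their deviations, and the fit with a replicate block gave 0 probe sets for both comparisons. Of 363 named genes 22 changed sign under some setting, but 0 of the 242 without overlap; 40 of 52 list medians kept their sign and 12 did not. The number of arrays limits the precision.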
